A study of Mus musculus with 380 samples.

Results

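CD8 T cells that had entered B16F10 tumours were compared between a plate from a mouse labelled Il27ra knockout (KO-labelled) and a plate from a wild-type (WT) mouse. The cells were taken by the plate named in their titles and kept when at least 1000 genes exceeded 1 FPKM. FPKM is a fragment count corrected for transcript length and library size. The filter kept 80 of 94 KO-labelled and 72 of 94 WT cells, which is 80.9% of the CD8 cells, and these made up 50% of the kept cells of the whole series. Each plate also gave 1 well of pooled cells (population well), which served as a second view.

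B16F10 is a transplantable mouse melanoma, and the mice of both groups were C57BL/6. Libraries were made with Smart-seq2, which amplifies cDNA from single cells on plates. The titles give 1 mouse code per genotype, KO4 and WT4, and both CD8 plates carry p1. Nothing in the labels names a further animal, a treatment, an age or a time after tumour injection, so genotype, animal and plate cannot be told apart. Cells of 1 plate are not replicates of a genotype, so no test between the plates was possible and every difference below compares 2 plates.

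Interleukin-27 acts on T cells through a receptor made of Il27ra and the shared chain gp130 (Il6st), which signals through STAT factors including STAT3. Within tumours, CD8 T cells range from cells with the regulator TCF-1 (Tcf7), the interleukin-7 receptor and the capacity to renew, to cells with TOX, inhibitory receptors and granzymes after prolonged antigen contact. T cells that meet a stimulus also switch on immediate-early genes, such as those of the AP-1 family, within minutes and without new protein synthesis.

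Il27ra itself was measured on both plates. It lies on chromosome 8 at 84030294 to 84042589 on the minus strand (GRCm38, GENCODE M21). In KO-labelled cells it ranged from 0 to 301.3 FPKM with a median of 40.6, and in WT cells from 0 to 740.0 with a median of 35.1. The ranges overlapped, and the share of cells above 1 FPKM was 61.3% (exact Clopper-Pearson 95% interval 49.7 to 71.9) against 65.3% (53.1 to 76.1). The wells held 85.3 FPKM on the KO-labelled plate and 157.02 on the WT plate. Values summed over a whole gene cannot check a deletion of some exons, so the label is used only as a label. These intervals and all those below cover counting error between cells only.

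The 2 plates held T cells of the CD8 lineage. Cd8a, the coreceptor chain, was above 1 FPKM in 72 of 80 cells of the KO-labelled plate and 61 of 72 of the WT plate, and the signalling chain Cd3d in 72 and 70. Cd4 was above 1 FPKM in 4 of 72 WT cells and in 0 of 80 KO-labelled ones, a count that allows up to 3 cells. The plates differed in genes per cell, with a median of 2508 above 1 FPKM on the KO-labelled plate (1149 to 5296) and 3168 on the WT plate (1056 to 7014). Cycling cells, with at least 10 of 46 cell cycle genes above 1 FPKM, numbered 13 of 80 and 36 of 72. Of these plates' cells, 15 and 9 lay at 8 to 11 such genes, near that limit. Reads per library were not estimated here.

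The plates were not equal in markers of other cell types. At least 2 melanoma markers exceeded 10 FPKM in 8 of 72 WT cells and 0 of 80 KO-labelled cells, with the summed markers from 0 to 2160 and 0 to 102.9 FPKM. For dendritic cell markers the counts were 9 WT and 3 KO-labelled cells, for macrophage markers 0 WT and 3 KO-labelled, and for NK markers, several of which CD8 T cells share, 8 WT and 20 KO-labelled. S100a8 of neutrophils and Col3a1 of fibroblasts stood at 0 in every kept cell of both plates, but not all markers of these types did. At least 2 neutrophil markers exceeded 10 FPKM in 3 WT cells and 0 KO-labelled ones. With Tcf7 or Il7r detected, neutrophil Cxcr2 had shares above 1 FPKM of 98.3% (KO-labelled plate) and 100% (WT plate). Col1a1 of fibroblasts was not at 0 in every WT cell. The melanoma count did not use Tyr, whose shares above 10 FPKM were 37.5% (KO-labelled plate) and 43.1% (WT plate). The WT well held more of several foreign transcripts than the KO-labelled well: Hba-a1 (haemoglobin) was at 4230 against 0 FPKM, H2-Aa (MHC class II) at 2770 against 1060, and Apoe at 322.6 against 10.8. The part of these cells and transcripts in the differences below was not tested. Leaving out the 22 KO-labelled and 24 WT cells with such markers gave the shares in the closing section. It also moved the median difference of some gene lists used below. Killer lectin receptors went from 1.07 to 0.41 and cytokine receptors from 0.28 to 0.78, while immediate-early genes went from 1.51 to 1.57.

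For each gene the mean over cells of log2(FPKM + 1) on the WT plate was subtracted from that on the KO-labelled plate, and a difference of 1 or more either way is called past 1. A gene was compared when it exceeded 1 FPKM in at least 20% of kept cells of 1 plate, which 6599 genes met. Of these, 1289 (19.5%) were lower and 3.00% higher by 1 or more in KO-labelled cells, with a median difference of -0.46. When 47 cells of each plate were paired on genes detected, to medians of 2727 and 2794 genes, 5.11% were lower and 448 (6.79%) higher, and the median was -0.04. In the wells 510 (7.73%) were lower and 637 (9.65%) higher, with a median of 0.02. The surplus of lower genes was thus seen in the unpaired cells and not in the paired cells or the wells. Pairing on genes detected itself tends to balance lower and higher genes, so the paired counts are no separate result on that surplus. Of the 1289 lower genes, 932 (72.3%) had the same sign in the wells and 15 were past 1 the other way. Of the higher genes, 87.9% had the same sign and 1 was past 1 the other way.

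The genes past 1 in the same direction in kept cells, in paired cells and in the wells numbered 55 lower (0.833% of those compared) and 67 higher (1.02%). They are called the shared genes below. In cells that were not cycling and had at least 2000 genes, 53 KO-labelled and 23 WT, 29 of the 55 lower genes stayed past 1 and 4 had the opposite sign. Of the 67 higher genes, 51 stayed past 1 and 0 had the opposite sign. Over all genes compared, 9.59% were lower and 7.80% higher in those cells. They are a part of the kept cells by which the shared genes were chosen, so staying past 1 there is no independent support. Inhibitory receptors gave 3 of the lower genes and cell cycle genes 6, while immediate-early genes gave 10 of the higher ones. The other shared genes are the main subject here.

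**Figure D1:**
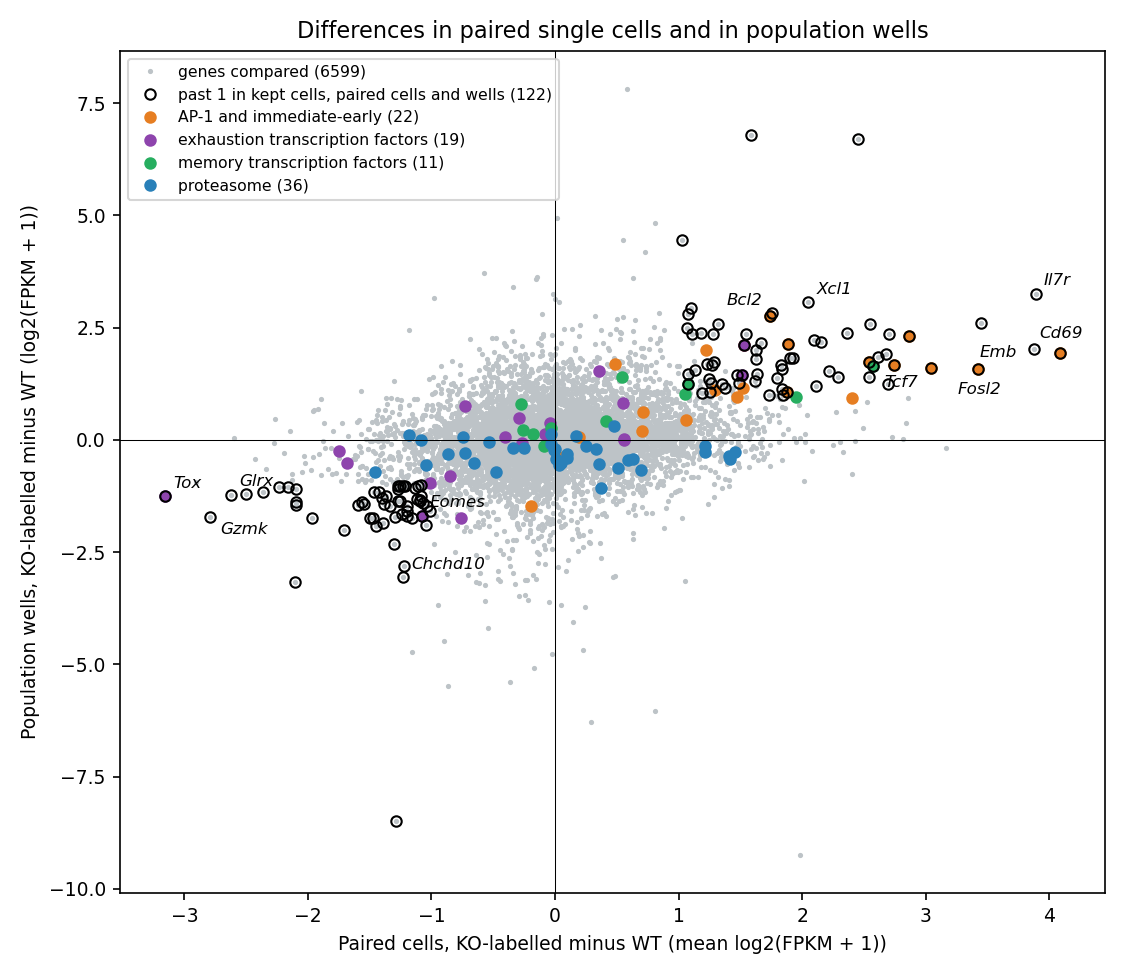
Difference of each gene between KO-labelled and WT paired single cells (horizontal axis, mean log2(FPKM + 1)) and population wells (vertical axis, log2(FPKM + 1)), with 4 gene lists coloured and the 55 lower and 67 higher shared genes circled. Il7r, Emb, Cd69 and Fosl2 lie far to the right and Tox and Gzmk far to the left, while the proteasome genes lie on both sides of 0 on the horizontal axis.

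As a list, AP-1 and other immediate-early genes were higher in KO-labelled cells on all 4 views. Of 30 on the list 22 were compared, and 13 were higher and 0 lower by 1 or more in kept cells, against 3.00% and 19.5% of all genes compared. The median was 1.51 in kept cells, 1.53 in paired cells, 1.19 in non-cycling cells with at least 2000 genes and 1.37 in the wells. In paired cells 16 were higher, against 6.79% of all genes, and in the wells 14 were higher and 1, Jund, was lower. Per cell, a median of 12.5 of the 22 genes exceeded 1 FPKM on the KO-labelled plate (2 to 19) and 10 on the WT plate (0 to 17). The KO-labelled cells thus had more of these genes above 1 FPKM although they had fewer genes in all.

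AP-1 is a dimer of Fos and Jun proteins, and its members did not differ equally. Every gene whose cell values are given from here on had a lowest value of 0 FPKM on both plates, so the cells of the plates overlapped for each. Fosl2, a Fos-family member, had a median of 46.8 FPKM (highest 1210) in KO-labelled cells and 0 (highest 118.7) in WT cells. It exceeded 1 FPKM in 82.5% (72.4 to 90.1) against 33.3% (22.7 to 45.4) of cells, and the wells held 83.2 and 27.1 FPKM. Its difference was 3.58 in kept and 3.42 in paired cells. Among cells above 1 FPKM the median Fosl2 level was 59.9 against 6.07 FPKM, so both the share of cells and the level within them were higher.

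Junb, the most abundant Jun-family member here, was present in most cells of both plates. Its median was 2101 FPKM (highest 9769) in KO-labelled and 525.9 (highest 4559) in WT cells, and the wells held 5114 and 1677. The difference of Junb was 3.26 in kept cells, 3.04 in paired cells and 1.5 in non-cycling cells with at least 2000 genes. Fos had medians of 311.3 and 0 FPKM, a difference of 2.00 and wells at 1317 and 631.0 FPKM. Jun was detected in 27.5% and 6.94% of cells, and its well values lay close together at 115.8 and 85.4 FPKM. Jund, which encodes a constitutive family member, was at the floor in the wells, with 0.52 and 3.20 FPKM.

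Cd69, an early activation receptor that keeps T cells in tissue, had the largest paired-cell difference of the list, 4.09. Its median was 507.4 FPKM (highest 6452) in KO-labelled and 0 (highest 1974) in WT cells, with wells at 1140 and 297.4 FPKM. Ppp1r15a (GADD34), which restores translation after stress, had medians of 196.3 and 0 FPKM and wells at 930.9 and 185.8. Btg2, an anti-proliferative gene, had medians of 525.3 and 71.9 FPKM and wells at 1586 and 478.7. Ier2 had medians of 413.0 and 83.1 FPKM and wells at 494.7 and 154.5. In each of these 4 genes the KO-labelled median exceeded the WT median and the KO-labelled well exceeded the WT well.

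Of the orphan nuclear receptor genes of the Nr4a family, which respond to T cell receptor signals and are also counted among exhaustion factors, Nr4a1 and Nr4a3 were higher and Nr4a2 was not. Nr4a1 had differences of 1.84 in kept cells, 1.53 in paired cells and 2.12 in the wells, where it stood at 1481 against 339.9 FPKM, but 0.54 in non-cycling cells with at least 2000 genes. Nr4a3 had 1.6, 1.51 and 1.45 in kept cells, paired cells and wells. Nr4a2 had -0.85, -0.08 and 0.12 in the same order. Gadd45b, Csrnp1 and Fos completed the list's shared genes. Klf10 and Jund had kept-cell differences of -0.61 and -0.40, and Dusp2 had -0.03.

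Promoters of this group were read because many of its members differed together. The 8 bases TGACGTCA, the cyclic AMP response element bound by CREB and ATF proteins, were searched in the 250 bases before RefSeq gene starts (GRCm38.p6). The starts of a whole chromosome were left out of the search. Both strands read the same since the motif is palindromic. The motif was in 508 of 32851 promoters (1.55%) and in 2.99% of the 4985 compared genes with a promoter, taking the first listed promoter of each gene. Of the 22 immediate-early genes compared, 17 had a promoter among those searched and 3 held the motif, namely Dusp1, Btg2 and Ppp1r15a. The windows are shown because they hold the only 3 matches of the list, with the motif in capitals and the bases 5′ to 3′ on the minus strand, that of each gene. They lie at chr17:26508578-26508645, chr1:134079284-134079351 and chr7:45526269-45526310, and in Ppp1r15a the motif begins 12 bases before the start. A match is a description of these letters and not a measured binding site, and the motif was chosen for display after matches were seen.
Dusp1: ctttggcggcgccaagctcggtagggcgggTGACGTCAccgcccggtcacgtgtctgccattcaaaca
Btg2: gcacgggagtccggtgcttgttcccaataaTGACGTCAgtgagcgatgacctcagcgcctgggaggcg
Ppp1r15a: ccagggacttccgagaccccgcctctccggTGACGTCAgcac

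Dusp1, a phosphatase that switches off MAP kinases, carried the first of these windows. It had medians of 685.2 FPKM in KO-labelled and 291.9 in WT cells, a difference of 2.26 and wells at 2336 and 1216 FPKM.

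Some inhibitors of NF-kB signalling were higher in KO-labelled cells, while others, and all 5 of its subunit genes, were not past 1 there. NF-kB is a family of transcription factors that Nfkbia, Tnfaip3 and related proteins restrain. Of 15 list members compared, 5 were higher and 0 lower in kept cells, with a median of 0.07 there, 0.84 in paired cells and 0.25 in the wells. The 5 were Nfkbiz, Nfkbia, Tnfaip3, Traf1 and Nfkbid. The inhibitors Nfkbib, Nfkbie, Cyld and Tnip1 had -0.65, -0.27, 0.02 and 0.58 in kept cells. Nfkbiz, an atypical inhibitor in the nucleus, had medians of 25.2 and 0 FPKM, wells at 220.5 and 41.6 FPKM and a difference of 2.62. Nfkbia had medians of 540.2 and 152.2 FPKM and wells at 1654 and 863.0. Tnfaip3 (A20) had medians of 451.5 and 176.2 FPKM and wells at 809.6 and 351.7, but its difference of 2.23 was 0.87 in non-cycling cells with at least 2000 genes. The subunits Rela, Nfkb2 and Relb had -0.68, -0.34 and -0.31 in kept cells and 0.08, 0.12 and 0.21 in the wells. Rel and Nfkb1 had 0.48 and 0.07 in kept cells but 1.34 and 1.03 in the wells. Traf1 did not differ between the wells, which held 396.3 and 406.6 FPKM.

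Among genes that shorten the life of messenger RNA or restrain division, 6 of 18 compared were higher and 1 lower in kept cells, where 3.00% of all genes were higher and 19.5% lower. In the wells 9 were higher and 1 lower, against 9.65% and 7.73% of all genes, and the medians were 0.39 and 0.94. In cells with Tcf7 or Il7r above 1 FPKM, a division described below, 2 were higher and 3 lower, near the 12.3% and 11.5% of all genes there. Zfp36l1, which binds AU-rich elements and promotes decay, had medians of 41.1 and 0 FPKM, was above 1 FPKM in 78.8% against 40.3% of cells, and stood at 111.2 and 37.9 FPKM in the wells. Tsc22d3 (GILZ), a glucocorticoid-induced gene, had differences of 1.83, 1.84 and 1.00 in kept cells, paired cells and wells. The 1 lower gene, Zc3h12d, had -1.44, -1.39 and -1.86, opposite to its relative Zc3h12a, which had 0.35, 0.52 and 2.24. Btg2, described above, is on this list too, and the list is not uniform in its RNases.

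Of the cytokine feedback list, the inhibitors Socs1 and Socs3 were higher in kept cells, as was the factor Stat4, while most members were not past 1. Socs1 had medians of 36.4 and 0 FPKM, wells at 76.3 and 36.1 and a difference of 1.84. Socs3, which STAT3 induces, had medians of 92.1 and 0 FPKM, wells at 374.7 and 234.5 and a difference of 2.08. In cells with Tcf7 or Il7r above 1 FPKM, however, Socs3 had -2.06 and was above 1 FPKM in 66.7% against 91.7% of the cells. Cish had 0.62 in kept cells, 1.09 in paired cells and 1.41 in the wells. Stat3, through which the interleukin-27 receptor signals, had -0.51 in kept cells and -0.07 in the wells. Of the 17 genes compared, 3 were higher in kept cells, Socs1, Socs3 and Stat4, and 1, Tyk2, was lower, with a median of 0.05.

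**Figure D2:**
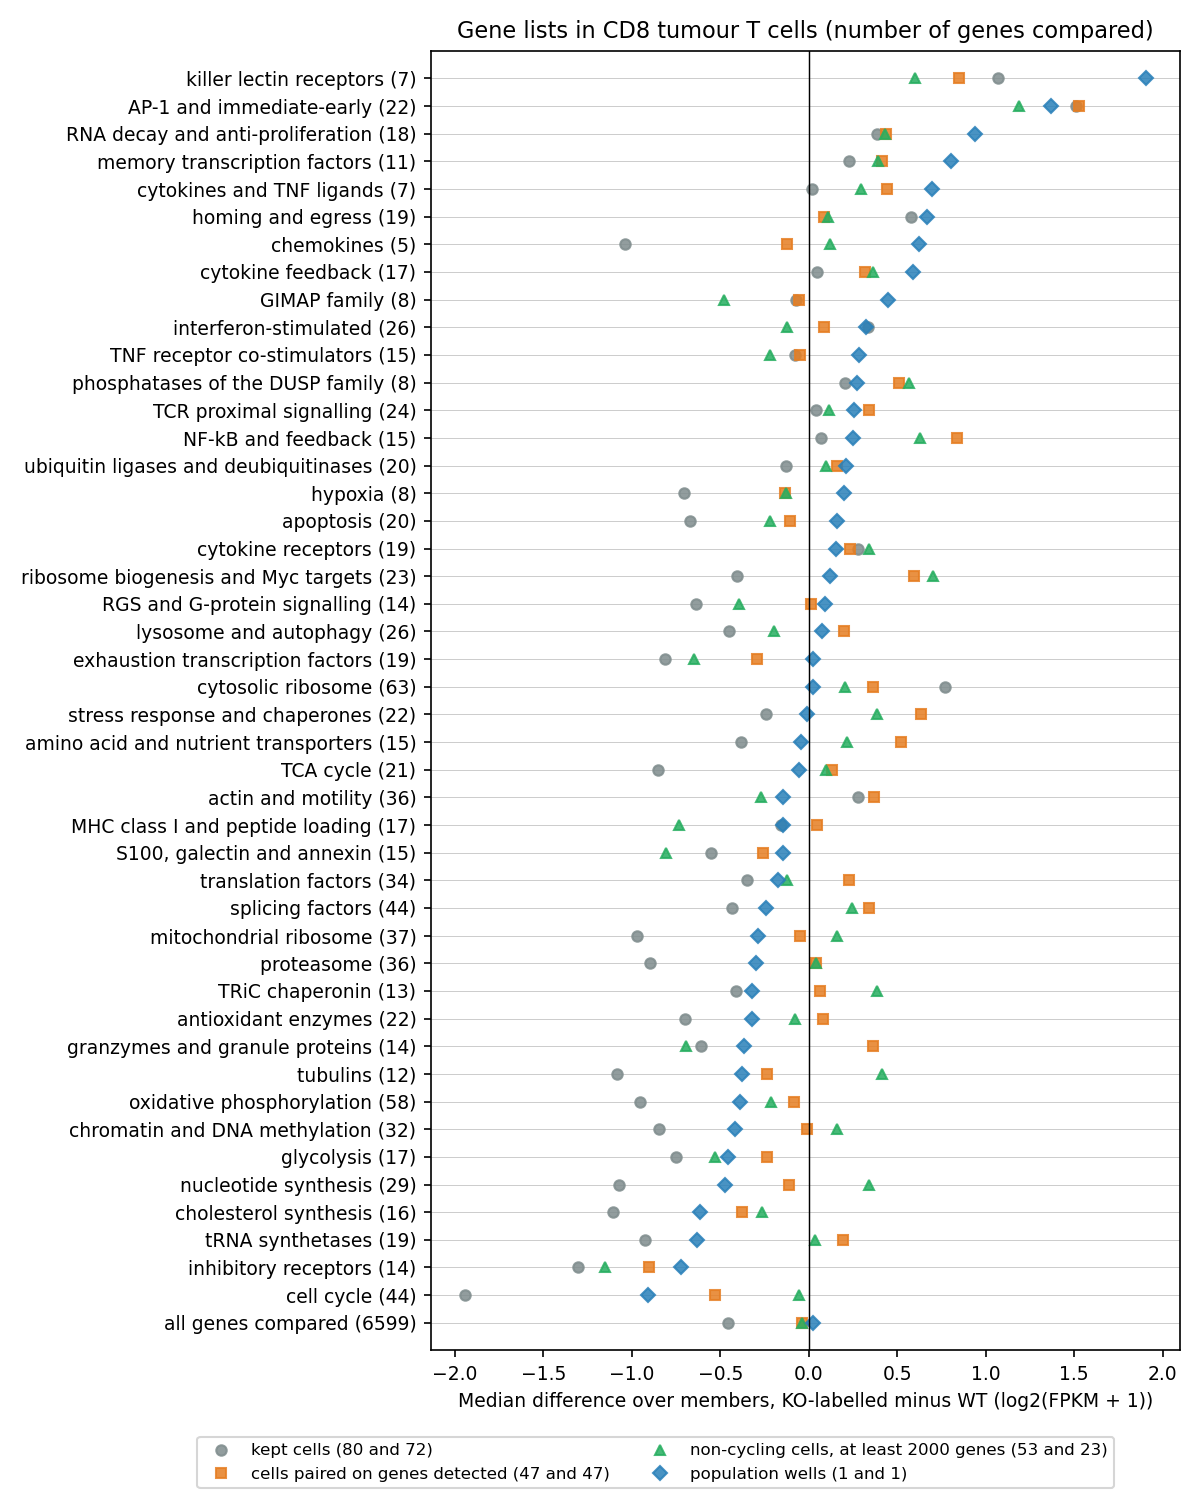
Median difference of each gene list (horizontal axis, log2(FPKM + 1), KO-labelled minus WT; number of genes compared in brackets) in kept cells, paired cells, non-cycling cells with at least 2000 genes and wells. The immediate-early list lies between 1.19 and 1.53 in all 4 views, whereas oxidative phosphorylation moves from -0.95 in kept cells to -0.08 in paired cells.

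Among transcription factors of naive and memory T cells, 3 of 11 compared were higher, namely Tcf7, Satb1 and Foxp1, and 0 lower, with a median of 0.23 in kept cells and 0.81 in the wells. Tcf7 had a median of 95.3 FPKM (highest 821.2) in KO-labelled and 0 (highest 963.2) in WT cells. The wells held 292.4 and 92.7 FPKM of Tcf7. Among the cells above 1 FPKM the median Tcf7 level was 254.7 on the KO-labelled plate and 418.7 on the WT plate, so the plates differed in how many cells had it and not by a higher level within them. Satb1, a chromatin organiser, had a difference of 2.29 and was above 1 FPKM in 55% against 18.1% of cells. Foxp1, which maintains quiescence, had a difference of 1.13 and wells at 51.4 and 21.1 FPKM. Lef1, the relative of Tcf7, had 0.45 in kept cells, -0.28 in paired cells and 0.81 in the wells, and Foxo1 had 0.19 in kept cells. In cells with Tcf7 or Il7r above 1 FPKM, 3 of the 11 were lower and 1 higher, with a median of -0.08. All genes had 11.5% lower and 12.3% higher there. The 3 include Tcf7, which itself defines that division. Satb1 had 0.67 and Foxp1 -0.04 in those cells, so neither was past 1.

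The receptor genes Il7r, Il18r1, Il18rap and Ifngr1 were higher, and Il10ra was lower. Il7r had a median of 79.98 FPKM (highest 1906) in KO-labelled and 0 (highest 867.5) in WT cells, and the wells held 351.6 and 35.9. Bcl2, a survival gene that interleukin-7 sustains, had medians of 82.5 and 0 FPKM and wells at 249.9 and 34.6. Il18r1 had medians of 54.9 and 0.31 FPKM and wells at 137.3 and 51.1, and its partner chain Il18rap had medians of 14.4 and 0 and wells at 215.3 and 91.1. Both chains of this receptor were thus higher. Ifngr1, a chain of the interferon-gamma receptor, had differences of 1.93 in kept cells, 1.49 in paired cells and 1.27 in the wells, but its partner chain Ifngr2 had 0.0012, -0.17 and -1.11. Il10ra, a chain of the interleukin-10 receptor, had medians of 0 and 70.9 FPKM, a difference of -2.59 and wells at 181.3 and 336.01 FPKM. Its partner chain Il10rb had 0.64 in kept cells and 0.50 in the wells. The 19 cytokine receptors compared had a median of 0.28, with 6 higher and 1 lower.

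Adhesion and egress genes were split between higher and lower members. Of 19 compared, 7 were higher and 3 lower in kept cells, and 8 and 1 in the wells, with medians of 0.58 and 0.67. Emb (embigin), an adhesion protein and transporter partner, had the largest difference of the kept cells among all genes named, 4.48. Its median was 333.6 FPKM (highest 1491) in KO-labelled and 0 (highest 1366) in WT cells, with 633.1 and 154.8 FPKM in the wells. S1pr1, the receptor that guides T cells out of tissue, had medians of 13.1 and 0 FPKM and wells at 187.2 and 35.8. Ccr7, which directs cells to lymph nodes, had wells at 889.8 against 253.3 FPKM and a difference of 1.91 in kept cells and 1.63 in paired cells. S1pr1 and Cd69, whose proteins oppose each other at the cell surface, were both higher.

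Lower members of this list included Itga4, an integrin chain, with -1.18 in kept cells and also in paired cells. Its wells stood the other way, at 106.2 against 78.6 FPKM. Other adhesion and positioning genes were also among the shared higher ones. Amica1 (JAML), an adhesion receptor, was above 1 FPKM in 45% (33.9 to 56.5) against 9.72% (3.999 to 19.01) of cells, with wells at 297.3 and 57.2 FPKM. Gpr183, an oxysterol receptor that positions lymphocytes, had medians of 39.7 and 0 FPKM and wells at 318.02 and 88.6. Cells on the KO-labelled plate thus carried more of 4 receptors for positioning in or exit from tissue, S1pr1, Ccr7, Gpr183 and Amica1, in kept cells, paired cells and wells.

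Killer lectin-like receptors, which read MHC class I and stress ligands, were mostly higher. Of 7 compared, 4 were higher and 1 lower in kept cells, and 6 and 0 in the wells, with medians of 1.07 and 1.91. Klrk1 (NKG2D) had medians of 231.1 and 0.53 FPKM and wells at 570.3 and 151.5. Klrd1 (CD94) had medians of 323.5 and 126.6 FPKM and wells at 1145 and 356.8. Klrg1, a marker of terminal effector cells, went the other way with -1.35 in kept cells, -1.28 in paired cells and wells at 129.8 and 240.1 FPKM. H60b, a ligand of NKG2D, was above 1 FPKM in 53.8% (42.2 to 65) against 5.56% (1.53 to 13.6) of cells, and the KO-labelled well held 102.6 FPKM while the WT well listed it at 0. Members of these families share sequence, so reads may be split between them. More KO-labelled than WT cells also had NK markers, as given above, and the lists share genes. Without the cells with markers of other types, the median of the killer lectin list in kept cells was 0.41 instead of 1.07. In cells with Tcf7 or Il7r above 1 FPKM, 2 of the 7 were higher and 2 lower, against 12.3% and 11.5% of all genes there.

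Of the few cytokine and chemokine genes in the shared set, Xcl1 and Tnfsf8 were higher. The chemokine list did not follow Xcl1 in kept cells, where 3 of 5 compared were lower and 1 higher, with a median of -1.04. All genes compared had 19.5% lower and 3.00% higher there. In the wells 0 of the 5 were lower and 2 higher, against 7.73% and 9.65% of all genes, with a median of 0.63. Of 7 cytokines and TNF ligands compared, 0 were lower and 2 higher in kept cells. Xcl1, which attracts cross-presenting dendritic cells, was above 1 FPKM in 35% (24.7 to 46.5) of KO-labelled and 12.5% (5.88 to 22.4) of WT cells, with wells at 1785 and 211.3 FPKM. Tnfsf8 (CD30 ligand) was above 1 FPKM in 26.2% against 4.17% of cells, with wells at 41.8 and 13.4. In cells with Tcf7 or Il7r above 1 FPKM, Xcl1 had -0.41 and was above 1 FPKM in 31.7% against 33.3% of cells. Tnfsf8 had 0.28 there. The signal genes Sgk1, Socs1 and Pim2 had differences of 1.74, 1.84 and 1.43 in kept cells and 1.99, 1.06 and 1.31 in the wells. The noncoding Gm12505 was the remaining gene among the 15 highest named, with 2.75 in kept cells, 1.90 in paired cells and 1.82 in the wells.

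**Figure D3:**
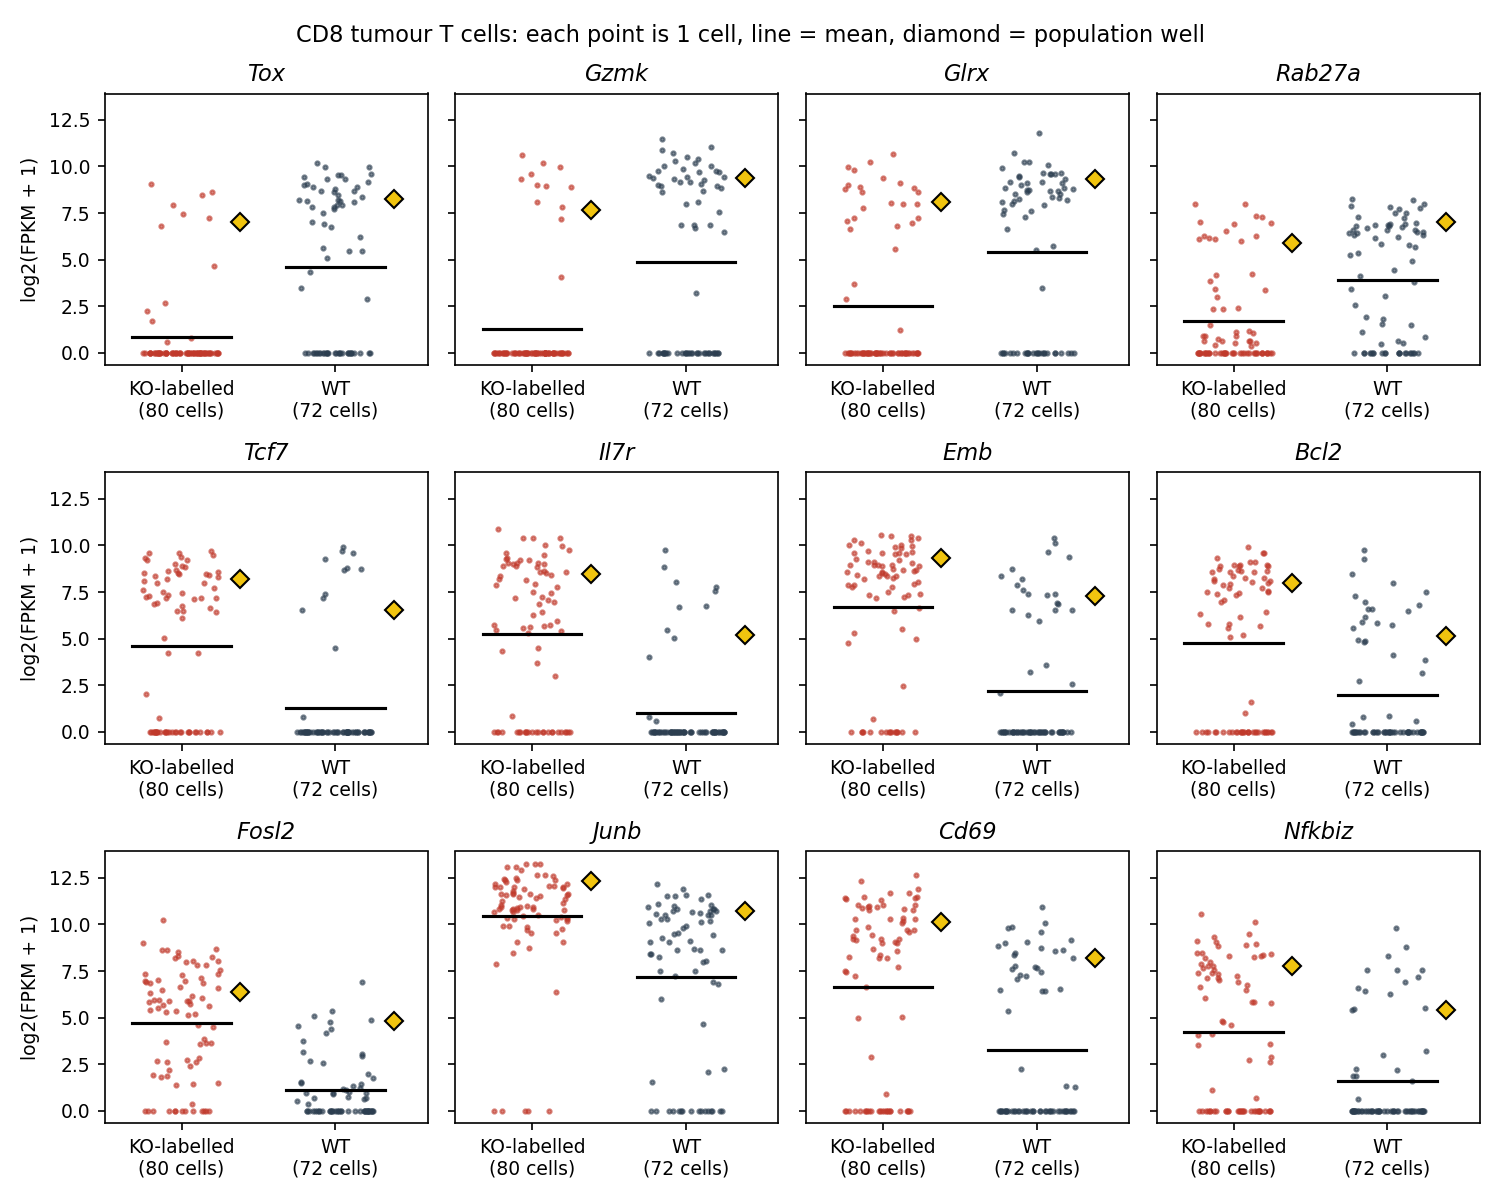
Level of 12 genes (vertical axes, log2(FPKM + 1)) in each kept cell of the KO-labelled (80 cells) and WT (72 cells) plates, with the mean as a line and the population well as a diamond. Cells at 0 and cells at high levels occur on both plates for every gene, and the wells of Tox, Gzmk, Glrx and Rab27a lie higher for WT.

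Tox led the shared genes that were lower in KO-labelled cells. Its product is a DNA-binding regulator of T cells under chronic stimulation. Tox had a median of 0 FPKM (highest 532.5) in KO-labelled and 45.9 (highest 1183) in WT cells. It exceeded 1 FPKM in 13.8% (7.07 to 23.3) against 58.3% (46.1 to 69.9) of cells, and the wells held 128.4 and 306.4 FPKM. The difference of Tox was -3.74 in kept cells, -3.16 in paired cells and -2.05 in non-cycling cells with at least 2000 genes.

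Other transcription factors of effector and exhausted cells did not all follow Tox. Of 19 compared, 7 were lower and 2 higher in kept cells, with a median of -0.81, but 3 were lower and 3 higher in the wells, with a median of 0.03. Eomes, a T-box factor, was above 1 FPKM in 15% against 48.6% of cells and stood at 9.37 and 32.5 FPKM in the wells, but its difference of -1.56 was -0.30 in non-cycling cells with at least 2000 genes. Batf, an AP-1 partner of effector cells, had -1.61 in kept cells, -0.76 in paired cells and wells at 162.7 and 548.4 FPKM. Runx3 and Ikzf3 had -2.03 and -1.96 in kept cells and -1.75 and -1.68 in paired cells, but only -0.25 and -0.52 in the wells. Tbx21, which encodes T-bet, had -0.25 in kept cells and 0.48 in the wells, and Irf4 had 0.05 and 1.53.

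Granule genes were also unequal, with Gzmb, Gzmk, Rab27a and Prf1 lower by 1 or more in kept cells and the other members compared not. Gzmb had a median of 0 FPKM (highest 15193) in KO-labelled and 1001 (highest 10425) in WT cells, with wells at 3071 and 6407 FPKM. Gzmk had medians of 0 and 108.98 FPKM, a share above 1 FPKM of 15% against 54.2%, and wells at 198.96 and 660.9. The granzyme Gzma, detected in too few cells to be compared, was above 1 FPKM in 11.3% against 11.1% of cells, with wells at 492.3 and 139.2 FPKM. Rab27a, which docks granules for release, had medians of 0 and 33.2 FPKM and wells at 57.6 and 129.8. Prf1 (perforin) had -1.60 in kept cells, -0.08 in paired cells and -1.04 in the wells. Lamp1 had 1.55 in kept cells and -0.40 in the wells, and Nkg7 had 0.40 and -0.26. Of the 14 genes compared, 4 were lower and 2 higher in kept cells, where 19.5% and 3.00% of all genes were. The list's median of -0.61 was close to the -0.46 of all genes, and it was 0.36 in paired cells.

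Among antioxidant enzymes, Prdx2 and Glrx were lower on every view while the list as a whole was not. Prdx2, a peroxiredoxin that removes hydrogen peroxide, had medians of 0 and 293.97 FPKM and wells at 186.2 and 487.2. Glrx (glutaredoxin), which reduces glutathione-bound cysteines, had medians of 0 and 249.2 FPKM and wells at 275.3 and 644.7. The difference of Glrx was -2.91 in kept cells, -2.62 in paired cells and -2.96 in non-cycling cells with at least 2000 genes. Of 22 genes compared, 9 were lower and 1 higher, with a median of -0.70 in kept cells, 0.08 in paired cells and -0.32 in the wells. Sod1 and Gpx4 had 0.15 and -0.09 in kept cells.

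The other lower shared genes came from varied functions. Cmtm7 had medians of 0 and 324.1 FPKM and wells at 277.4 and 642.5. The lysosomal sulphatase gene Arsb had medians of 0 and 90.1 FPKM and wells at 72.7 and 244.6. Chchd10, a mitochondrial protein gene, was above 1 FPKM in 8.75% (3.59 to 17.2) against 43.1% (31.4 to 55.3) of cells, with wells at 34.8 and 299.2 FPKM. Gpr56, an adhesion receptor gene, was above 1 FPKM in 2.5% (0.304 to 8.74) against 41.7% (30.2 to 53.9), with wells at 7.13 and 72.2. Gpr56 and Chchd10 thus had among the most unequal wells of the lower genes named.

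A few of these lower genes need a reservation. Serpina3g had medians of 0 and 188.2 FPKM and wells at 370.8 and 970.1, but it belongs to a cluster of near-identical copies and its reads may be shared. Gimap7 had -2.41 in kept cells and -1.16 in the wells, while the other 7 members of its GTPase family lay between -0.19 and 1.15 in kept cells. Dut, Mad2l1, Gmnn and 2810417H13Rik act in DNA synthesis or division and had differences of -2.90, -2.56, -2.52 and -3.04 in kept cells. In non-cycling cells with at least 2000 genes, Dut had -1.21, 2810417H13Rik -0.34, Mad2l1 -0.64 and Gmnn -0.06. The wells of Mad2l1 and Gmnn were at 51.3 against 132.4 and 89.1 against 283.2 FPKM. Cycling cells were fewer on the KO-labelled plate, as given above.

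Oxidative phosphorylation, proteasome and mitochondrial ribosome genes had negative medians in kept cells and medians near 0 in paired cells. The first list had 26 of 58 genes lower and 0 higher by 1 or more, with a median of -0.95, but -0.08 in paired cells. In the wells its median was -0.39, with 54 genes below 0 and 1 lower by 1 or more. The proteasome had 15 of 36 lower and a median of -0.90, which was 0.04 in paired cells and -0.30 in the wells, where 31 were below 0. Mitochondrial ribosome genes had medians of -0.97, -0.05 and -0.29 in kept cells, paired cells and wells. Over all genes compared the median was -0.46, -0.04 and 0.02, and 3183 of 6599 were below 0 in the wells. In pairs of cells with like numbers of genes, the medians of these 3 lists lay within 0.1 of 0. Such pairing itself tends to bring the median of all genes near 0, so it does not show why the lists were lower in kept cells. Among all kept cells, WT cells had more genes above 1 FPKM.

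Cholesterol synthesis and nucleotide synthesis, which dividing cells need, also had negative medians in the wells. Cholesterol genes had medians of -1.10 in kept cells, -0.38 in paired cells, -0.26 in non-cycling cells with at least 2000 genes and -0.61 in the wells. Fdps, which makes farnesyl diphosphate, had -1.78 in kept cells and -1.22 in the wells. Nucleotide synthesis had 15 of 29 genes lower in kept cells and 8 in the wells, with medians of -1.07 and -0.47, but -0.11 in paired cells and 0.34 in non-cycling cells with at least 2000 genes. Glycolysis kept a negative median on all 4 views, -0.75, -0.23, -0.53 and -0.46. The cytosolic ribosome list had 17 of 63 genes higher in kept cells and 0 in the wells, with medians of 0.77 and 0.02.

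Tcf7 and Tox were seldom detected in the same cell on either plate. Tcf7 without Tox was seen in 45 of 80 KO-labelled cells, 56.2% (44.7 to 67.3), and in 10 of 72 WT cells, 13.9% (6.87 to 24.1). Tox without Tcf7 was seen in 8 and 41 cells, 10% (4.42 to 18.8) against 56.9% (44.7 to 68.6). Both genes were above 1 FPKM in 3 KO-labelled cells and 1 WT cell. Il7r without Pdcd1, the gene of the receptor PD-1, was seen in 41 and 8 cells, and Pdcd1 without Il7r in 13 and 48. Havcr2 (TIM-3) and Tcf7 were together in 1 KO-labelled and 0 WT cells. Gzmb and Tcf7 overlapped more often on the KO-labelled plate, in 14 of 80 cells, 17.5% (9.91 to 27.6), against 1 of 72, 1.39% (0.0352 to 7.5). A gene below 1 FPKM in a cell may have been missed, so these shares describe detection.

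The cells were then divided by Tcf7 or Il7r above 1 FPKM, which separates cells by genes that themselves differ, so those genes are no result here. At least 1 was found in 75% (64.1 to 84) of the KO-labelled cells, 60 of 80, and 16.7% (8.92 to 27.3) of the WT cells, 12 of 72, with medians of 2518 and 2462 genes per cell. Neither was detected in 20 and 60 cells, with medians of 2338 and 3454 genes and 30% and 56.7% of cells cycling. Among the cells with Tcf7 or Il7r, 757 (11.5%) of the 6599 genes were lower and 809 (12.3%) higher, and the median was 0.03. Among those with neither, 1839 (27.9%) were lower and 2.91% higher, and the median was -0.55. Only 12 WT and 20 KO-labelled cells stand on 1 side of each comparison, and the second pair of groups is unequal in genes per cell.

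As a list, immediate-early genes were higher in both divisions, but not every member was. With Tcf7 or Il7r detected the list's median was 0.96, with 11 of 22 higher and 1 lower, and with neither it was 1.47, with 12 higher and 0 lower. Fosl2 was above 1 FPKM in 83.3% (71.5 to 91.7) of 60 KO-labelled and 50% (21.1 to 78.9) of 12 WT cells with Tcf7 or Il7r. In cells with neither it was above 1 FPKM in 80% (56.3 to 94.3) of 20 and 30% (18.8 to 43.2) of 60. Cd69 had medians of 582 and 1.86 FPKM in the first division and 232.3 and 0 in the second. In cells with Tcf7 or Il7r, however, Fos, the 1 lower gene, had -1.45. Nr4a1, Junb, Csrnp1 and Ier2 had -0.06, 0.39, 0.44 and 0.71. Fos and these shared genes were thus not higher by 1 among such cells.

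Tox had equal shares on the plates among cells with Tcf7 or Il7r and a lower KO-labelled share among those with neither. With Tcf7 or Il7r detected, Tox was above 1 FPKM in 8.33% of both plates (2.76 to 18.4 and 0.211 to 38.5). With neither it was above 1 FPKM in 30% (11.9 to 54.3) of KO-labelled and 68.3% (55 to 79.7) of WT cells. Inhibitory receptors had 1 of 14 lower and 2 higher in the first division, with a median of 0.53, and 11 lower and 1 higher in the second, with a median of -1.17. Gzmb was above 1 FPKM in 30% (18.8 to 43.2) of KO-labelled and 8.33% (0.211 to 38.5) of WT cells with Tcf7 or Il7r, the reverse of the order over all cells. Emb had 88.3% (77.4 to 95.2) against 83.3% (51.6 to 97.9) in these cells and 50% (27.2 to 72.8) against 21.7% (12.1 to 34.2) in those with neither. Whether the divisions differ from each other was not tested.

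**Figure D4:**
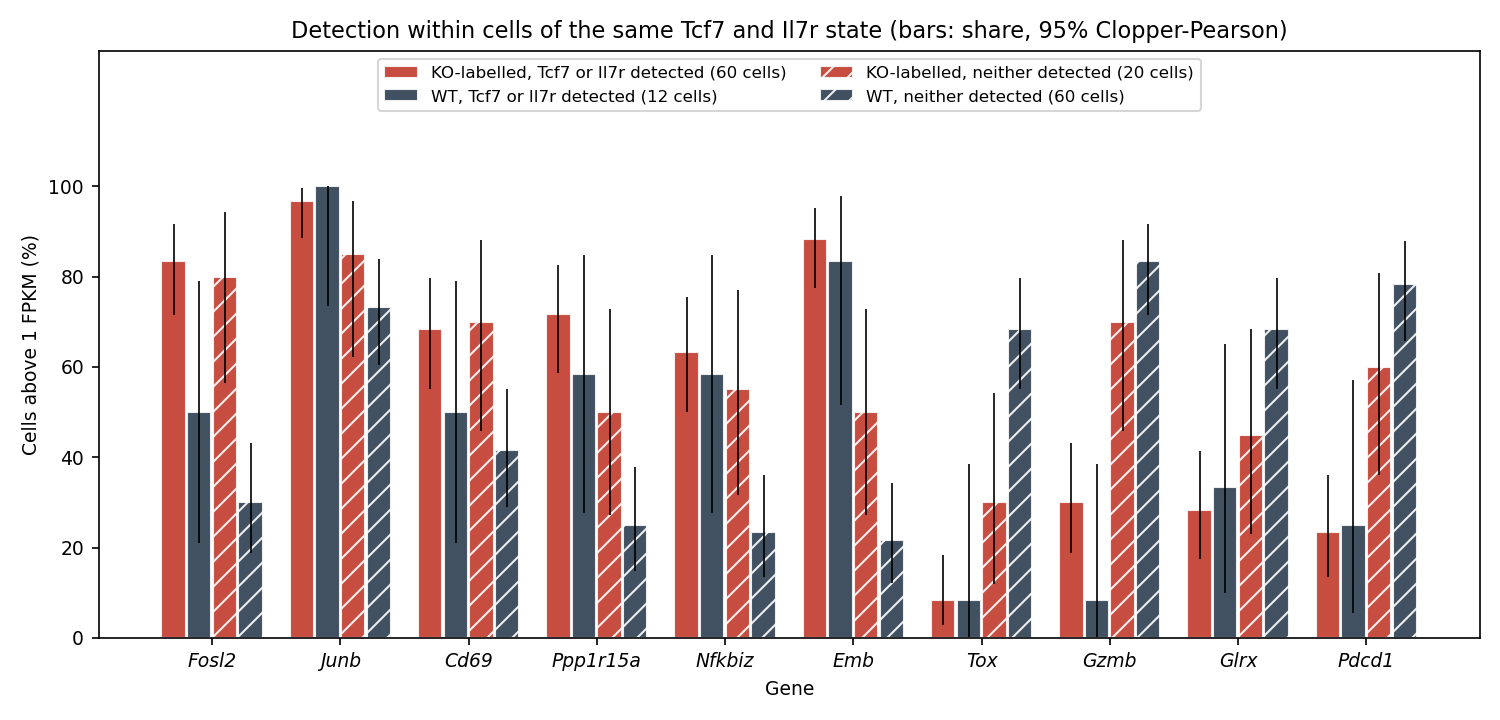
Share of cells above 1 FPKM (vertical axis, percent) for 10 genes in cells with Tcf7 or Il7r detected (plain bars, 60 KO-labelled and 12 WT) and with neither (hatched, 20 and 60), with 95% Clopper-Pearson intervals as lines. Fosl2 is higher on the KO-labelled plate in both divisions, while Tox is at 8.33% on both plates in cells with Tcf7 or Il7r.

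Cells and wells disagreed for a few genes. Fabp5, a fatty-acid-binding protein gene, had -1.88 in kept cells but 384.3 against 131.5 FPKM in the wells. Hdgf had -1.84 in kept cells and 159.1 against 61.6 FPKM in the wells, and Itfg1 had -1.54 with wells at 101.5 and 50.2. The pseudogene Atp6v0c-ps2 had 1.09 in kept cells, while its well values were 0 and 602.7 FPKM. In a well of many cells, fewer cells of a type and less RNA per cell cannot be told apart, and this holds for every well value here.

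Several shared genes lie near Il27ra on chromosome 8. Within 1 Mb of it 29 genes were compared, of which 7 were lower and 2 higher in kept cells, with a median of -0.45, close to the -0.46 of all genes. Of the 29, 5 were shared genes (17.2%), against 1.85% of all genes compared. These were Mri1, Gadd45gip1 and Prdx2 among the lower and Ier2 and Junb among the higher. Mri1, an enzyme gene of methionine salvage, lies at 84249906 to 84257326, 0.207 Mb away. It was above 1 FPKM in 5% (1.38 to 12.3) of KO-labelled and 40.3% (28.9 to 52.5) of WT cells, with wells at 34.9 and 97.6 FPKM. Prdx2 (84969587 to 84974834) and Junb (84974484 to 84978718) overlap at their ends on opposite strands, and they differed in opposite directions. Whether reads were counted by strand is not given in the sources used here, and the part of position was not tested.

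The CD4 plates of the same 2 mouse codes gave these values for the same genes. Of the 6599 genes, 69 (1.05%) were lower and 390 (5.91%) higher by 1 or more in KO-labelled CD4 cells. Of the 67 shared genes higher in CD8 cells, 25 were past 1 in the same direction there, and of the 55 lower ones 1 was. The immediate-early list had a median of 1.45 in CD4 cells and 1.10 in CD4 wells. Tcf7 had -1.75 in CD4 cells against 3.35 in CD8 cells, Gzmb 2.35 against -3.66 and Tox -0.18 against -3.74. The difference between the lineages was not tested, since each has 1 plate per label.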

How the data were processed

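The authors deposited FPKM values scaled between libraries by TMM factors, per the file's name in the labels. The submitters' processing notes name RSEM, Bowtie and mm10 without versions. It has 23420 gene symbols in rows and a column for each of 380 libraries, and 0 columns were unmatched to a sample. Gene positions came from GENCODE M21 (GRCm38), which held 21777 of the symbols. Promoter sequences came from RefSeq (GRCm38.p6).

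Cells were kept with at least 1000 genes above 1 FPKM. Differences are of the mean of log2(FPKM + 1), KO-labelled minus WT, with a pseudocount of 1 FPKM. Where many cells are at 0, such a difference mixes the share of cells with the level within them and is no fold change. Cells were paired 1 to 1 by the smallest total gap in log2 genes detected, at most 0.1 apart. With 1 plate per label no test was run, and p-values, standard errors and counts made from cells as replicates were not computed. The code was tested on the kept CD8 cells with plate labels shuffled and some genes multiplied by known factors. Shuffled groups do not keep the plates' unequal genes per cell, so that inequality was not part of the test. Tools were Python 3.11.15, pandas 2.3.3, numpy 2.4.6, scipy 1.17.1 and matplotlib 3.10.9.

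Genes named were Il27ra, the lineage genes, 6 markers, the 15 lowest and 15 highest shared genes outside inhibitory receptor and cell cycle lists, up to 5 members of each list with the largest differences, and up to 3 genes each way past 1 oppositely in cells and wells. Other genes, and the promoter motif, were added after their values were seen. The comparison, lists and members were chosen with earlier results of these data known. The alternatives were other pseudocounts, filters on cells and genes, pairing, leaving out groups of cells, rescaling and log2 of mean FPKM. Some genes that these rules select are not reported here.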

Additional observations from a re-analysis of the deposited data

How the results depend on the processing

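The shares of compared genes lower and higher by 1 or more, 19.5% and 3.00% with a median of -0.46, moved with the processing. They were 38.9% and 5.23% (median -0.75) with a pseudocount of 0.1 FPKM and 3.58% and 1.11% (-0.20) with 10 FPKM. They were 7.10% and 5.21% (-0.22) with every single cell, 32.1% and 1.55% with at least 2000 genes per cell, 8.76% and 1.38% (-0.10) with no filter on genes, and 11.9% and 5.71% (-0.16) with log2 of mean FPKM. Applying the gene filter to the paired cells gave 5.61% and 7.70% (-0.0043). Leaving out cells above 4000 genes gave 2.82% and 15.9% (0.22), leaving out cycling cells 2.37% and 24.1% (0.41), and non-cycling cells with at least 2000 genes, a setting chosen after seeing the data, 11.8% and 9.35% (-0.063). Without cells with markers of other types 18.4% were lower and 4.91% higher. Rescaling each cell to an equal sum and a limit of 10 FPKM on genes moved these shares by less than 1.5 times. The cause of these moves was not tested.

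Of the compared genes named, 3 past 1 changed sign: Fdps to 0.031 without cells above 4000 genes, and Prf1 to 0.54 and Gmnn to 0.12 without cycling cells. Of the lists with a median past 1, nucleotide synthesis went to 0.16 without cells above 4000 genes, 0.46 without cycling cells and 0.34 in non-cycling cells with at least 2000 genes. Tubulins went to 0.20, 0.78 and 0.41 and chemokines to 0.0014, 1.13 and 0.12 in the same order, and chemokines to 0.10 with every single cell. No paired analysis was possible because the numbers in the titles name wells and do not match samples across plates. Leaving out a replicate was not possible with 1 plate per label. Genes of low level may be missed in a cell by sampling, and reads per cell were not estimated.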
